A study of Mus musculus with 6 samples.

Results

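The cells described here under the label of non-classical monocytes of the mouse heart were 272 cells with transcripts of Ear2, Adgre4 or both. Ear2 is a ribonuclease of the eosinophil-associated family, and Adgre4 is an adhesion G-protein-coupled receptor of myeloid cells. These 272 cells are called the members below. The members were chosen from 30014 cells kept after quality limits, of 34940 cell barcodes deposited, in 6 single-cell RNA sequencing libraries. A kept cell had at least 1000 unique molecular identifiers (UMIs, each counting 1 captured transcript), at least 200 detected genes and at most 20% mitochondrial UMIs. A cell was a member if it held at least 3 UMIs of Csf1r, Cd68, Fcgr1 and Lyz2 together, at least 3 of Ear2 and Adgre4 together, and few of other lineages. Those upper limits were less than 1% of UMIs from S100a8 and S100a9, at most 2 UMIs of Col1a2 and Cdh5, fewer than 5 of C1qa and C1qb, fewer than 4 of Trem2 and Gpnmb, fewer than 20 of Arg1 and Spp1, and fewer than 10 of Ifit1, Ifit2, Ifit3 and Rsad2. The levels of these gate genes selected the cells and are given only as a description. The members were a mixed set, so the label need not hold for each of them. As given below, 61 had high counts of major histocompatibility complex class II genes. Another count, 38, had 0 UMIs of the 6 genes that were highest against other monocytes.

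Non-classical monocytes are the blood monocytes with little Ly6C on their surface. They crawl along the inner wall of small vessels, depend on the nuclear receptor Nr4a1, carry much of the fractalkine receptor Cx3cr1, and mostly arise from classical monocytes. Classical monocytes carry Ly6C and the chemokine receptor Ccr2, leave the blood quickly after tissue injury and enter the infarcted heart early, and both kinds are found in heart tissue digests because vessels are digested with the tissue.

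The cells came from ventricles of male mice aged 8 to 12 weeks, either wild type (WT, strain C57BL/6JRj) or lacking Trpm4, a calcium-activated cation channel (KO, strain B6.Cg-Trpm4tm1.2-PG). Hearts were taken 24 h after a sham operation, or 24 h or 72 h after the left anterior descending coronary artery (LAD) was tied off, which causes a myocardial infarction. The tissue was digested at 37°C, cardiomyocytes were filtered out, live cells were sorted, and cells of 4 mice were pooled into each library, which was sequenced by 10x 3' chemistry. Each of the 6 combinations of genotype and condition had 1 library, and shams were taken at 24 h only, so the 72 h libraries are set against ligation at 24 h and against each other. Differences between conditions or genotypes therefore had no replicate check, and the intervals below cover counting error only. Comparisons of the members with other cell classes could be tested, since both classes were measured in each of the 6 libraries.

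The libraries held 20995280 to 45649061 UMIs and 3201 to 6734 kept cells. The KO library at 72 h stood apart in depth: the median over cells that met the lineage limits was 2576 UMIs there and 9692 to 11882 in the other 5. Pairs of libraries shared 3 to 14 cell barcodes, 4 members had a barcode that also occurred in another library, and 0 barcodes were shared between members. Trpm4 itself had 6 UMIs in the members, 3 of them in the WT library at 24 h after ligation, 2 in the KO library at 24 h after ligation and 1 in the WT library at 72 h. Over the other kept cells Trpm4 stood at 8.90, 5.41 and 4.27 UMIs per 1000000 UMIs of the summed cells (CPM) in the WT sham, 24 h and 72 h libraries and at 6.06, 3.44 and 2.60 CPM in the matching KO libraries. A 3' tag need not lie in the deleted part of the gene, which the labels do not give, so these counts check neither genotype.

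Ear2 Adgre4 monocytes made up between 0.463% and 1.68% of kept cells. The WT sham library held 70 members, 1.31% of its kept cells (exact Clopper-Pearson 95% interval 1.03 to 1.66), and the KO sham library held 27, 0.463% (0.306 to 0.673). At 24 h after ligation the WT library held 30 members, 0.937% (0.633 to 1.34), and the KO library 46, 0.683% (0.501 to 0.910). At 72 h the WT library held 74, 1.68% (1.32 to 2.10), and the KO library 25, 0.553% (0.358 to 0.816). Both shares in the KO sham and KO 72 h libraries lay below the WT library of the same condition, without overlap of the intervals, while the 24 h intervals overlapped. As a ratio of shares, KO over WT was 0.353 (95% interval 0.217 to 0.557) in shams, 0.729 (0.450 to 1.20) at 24 h and 0.329 (0.201 to 0.525) at 72 h.

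The 72 h difference between genotypes did not hold when depth was made equal. With every cell thinned to 2000 UMIs and shallower cells left out, which removed 2046 cells from the KO 72 h library and 237 to 917 from each of the others, the members were 0.565% of cells in the WT library at 72 h and 0.647% in the KO library, a ratio of 1.15 (0.562 to 2.28). The sham ratio at that depth was 0.369. Over time, WT shares went from 1.31% in the sham to 0.937% at 24 h, a ratio of 0.713 (0.449 to 1.11), and the share at 72 h was 1.79 times that at 24 h (1.16 to 2.84). Among cells that met the lineage limits, the WT share went the other way, from 4.02% at 24 h to 2.88% at 72 h. There the members were 5.65% in the WT sham, 3.02% in the KO sham, 2.71% in the KO library at 24 h and 0.881% in the KO library at 72 h. The order of the libraries thus depended on the denominator and on depth.

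**Figure D1:**
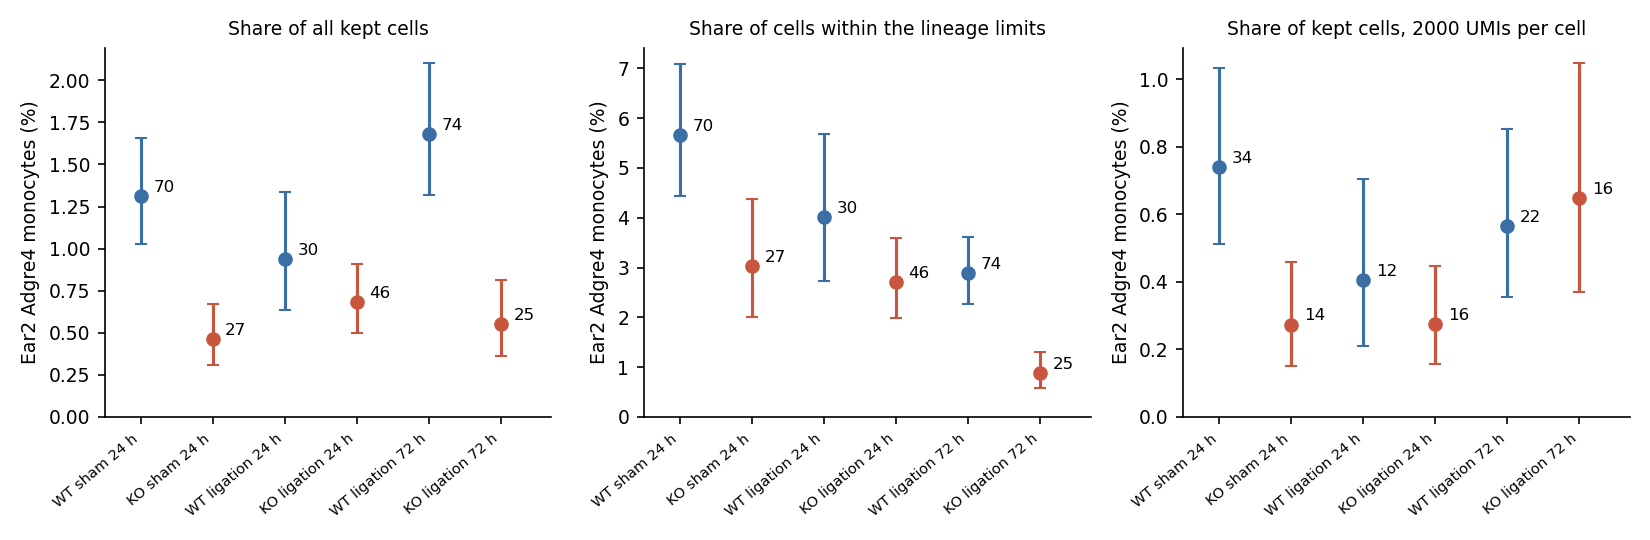
Share of Ear2 Adgre4 monocytes in each of the 6 libraries (blue WT, red KO), of all kept cells (left), of cells within the lineage limits (middle) and of cells thinned to 2000 UMIs (right), in percent with exact 95% intervals and the number of members beside each point. The KO 72 h library is low in the left and middle panels, at 0.553% and 0.881%, and at 0.647% in the right panel.

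The label was checked against its markers. Ear2, a gate gene, stood at 403 to 797 CPM in the members of the 6 libraries, at 18.9 to 22.7 CPM in Ly6c2 monocytes and at 2.3 to 13.2 CPM over the other kept cells. Both Ear2 and Adgre4 were detected in 181 members, 63 had Ear2 only and 28 had Adgre4 only. Of the markers the gate did not use, Itgal, the alpha chain of the integrin LFA-1, was at 674, 741, 491, 331, 399 and 603 CPM in the WT sham, KO sham, WT 24 h, KO 24 h, WT 72 h and KO 72 h libraries, the order kept for all lists of 6 values below. Every one of these values lay above the 68.8 to 124 CPM of Ly6c2 monocytes. Plac8, a gene of monocytes and other white cells, was at 1993 to 3550 CPM in the members and did not separate the classes, as Ly6c2 monocytes had 1973 to 4103 CPM. The aspartic protease gene Napsa was at 705 to 904 CPM in the members and at 612 to 815 CPM in Ly6c2 monocytes. Plac8 and Napsa thus marked monocytes of either kind against macrophages, and Itgal marked the members.

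Marker lists of most other cell types were low in the members, and the dendritic cell list was not. Summed over its 10 genes, the resident macrophage list stood at 49.4 to 122 CPM, against 14239 to 24319 CPM in C1q Lyve1 Folr2 macrophages. That list holds C1qa and C1qb, which the gate limits, and Lyve1, Folr2 and Timd4, which chose the macrophages. Part of this gap was therefore fixed by the choice of cells. Cd163 and Igf1 had 0 UMIs in all 6 libraries of members. The 10 neutrophil genes summed to 185 to 1109 CPM, against 3749 to 46393 CPM over the other kept cells. The neutrophil list holds S100a8 and S100a9, which the gate limits in the members. The highest neutrophil sum went with S100a8, at 83.5, 55.6, 88.6, 506, 237 and 143 CPM. Eosinophil genes had 8 UMIs in all members together, T and NK cell genes 3, cardiomyocyte genes 22 and erythroid genes 11. Summed endothelial genes stood at 62.1 to 902 CPM in the members and 1028 to 17084 CPM over the other kept cells, and fibroblast genes at 95.1 to 235 and 1818 to 5958 CPM. The 8 dendritic cell genes summed to 143, 334, 56.4, 101, 151 and 31.7 CPM in the members and to 103, 101, 103, 69.8, 131 and 175 CPM over the other kept cells, so the members were above them in 4 libraries. In Ly6c2 monocytes the sums were 174, 225, 190, 122, 148 and 204 CPM. The members were above those only in the KO sham and WT 72 h libraries, so this level was not particular to them. The limit of 3 gate UMIs had no gap around it: 142 cells with 2 UMIs lay just outside and 72 with 3 just inside, with Itgal at 187 and 261 CPM, Ly6c2 at 387 and 258 CPM and Ace at 70.6 and 118 CPM.

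Ear2 Adgre4 monocytes were compared with 625 Ly6c2 monocytes of the same 6 libraries, which met the same limits but had at least 3 UMIs of Ly6c2 and fewer than 3 of Ear2 and Adgre4. The members had far more Ace, Eno3 and Slc12a2, more integrins of the LFA-1 and CD11c kind, and less of the chemokines Ccl2, Ccl7 and Ccl12. Angiotensin-converting enzyme (Ace) was at 356, 432, 306, 96.7, 213 and 412 CPM in the members and at 3.15 to 13.1 CPM in Ly6c2 monocytes. The log2 fold change of Ace was 5.01 ± 0.21 (SE derived from the test's F statistic, 6 libraries, adjusted p = 2.6e-11 by edgeR's quasi-likelihood test with Benjamini-Hochberg adjustment). Muscle-type enolase (Eno3) was at 270, 148, 52.3, 66.7, 153 and 317 CPM, against 0 to 7.07 CPM, a log2 fold change of 5.29 ± 0.27. The Na-K-Cl cotransporter gene Slc12a2 was at 162, 61.8, 80.5, 25.3, 25.8 and 71.4 CPM, against 0 to 3.04 CPM, a log2 fold change of 5.26 ± 0.36. The values of both classes did not overlap for any of these 3 genes.

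Of the 5069 genes tested outside the gates, 640 were higher in the members (12.6%) and 601 lower (11.9%). Against that background, 20 of the 23 tested genes of a list of non-classical monocyte genes rose and 0 fell, with a median log2 fold change of 1.87 against 0.01 over all genes tested. The list was written with earlier results of these data known and is not independent evidence of its direction. Its members that rose include the scavenger receptor Cd36 (log2 fold change 3.78 ± 0.27), the innate receptor Treml4 (3.05 ± 0.27), the sialomucin CD43 (Spn, 2.97 ± 0.25) and the peptidoglycan-binding protein Pglyrp1 (2.66 ± 0.28), each higher in 6 of 6 libraries. Napsa, Plac8 and Cebpb, a transcription factor of the myeloid lineage, were the 3 that did not pass, at 0.08, -0.01 and -0.0028. Outside that list, the receptor kinase gene Grk3 (2.95 ± 0.21) and the transporter gene Abcg3 were among the 12 genes with the highest fold change.

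Of 14 tested classical monocyte genes, 13 fell and 0 rose, with a median of -0.996. Ccr2 was moderately lower, at 531 to 793 CPM against 877 to 1133 CPM (-0.57 ± 0.09, adjusted p = 2.0e-04). The coagulation factor subunit F13a1 fell by 1.74 and the matrix proteoglycan Vcan by 1.43 on the log2 scale. Cd93, a receptor of monocytes and endothelium, did not pass, at -0.41. Ly6c2, which chose the comparison class and is left out of these counts, was at 59.3, 24.7, 157, 260, 329 and 182 CPM in the members. Cd7, an immunoglobulin-family receptor best known from T cells, had the lowest fold change of the genes named by rule, with 4 UMIs in all members and 552 in the Ly6c2 monocytes, a ratio of 0.0232 (0.00629 to 0.0596).

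Genes of adhesion, Fc receptors and survival split by member. Of 18 tested adhesion genes 10 rose and 3 fell. CD11c (Itgax) was at 138, 98.8, 101, 122, 112 and 87.2 CPM in the members against 14.7 to 21.1 CPM in Ly6c2 monocytes (log2 fold change 2.65 ± 0.17), and Itgal rose by 2.46 ± 0.15. The integrin chains Itga4 (1.41) and Itgb1 (0.95) and the chemokine receptors Cx3cr1 (1.37 ± 0.17) and Cxcr4 (1.402) rose, while Itgb7 (-0.78) and Ccr2 were among those that fell. Among 14 Fc and scavenger receptors 5 rose and 5 fell, with a median of 0.03. The low-affinity IgG receptor Fcgr4 (1.81 ± 0.27) and the inhibitory receptor Sirpa (0.86) rose, and Fcgr3 (-0.72) and the scavenger receptor Msr1 (-0.82) fell. Fcgr1, a gate gene, stood at 68.1 to 223 CPM in the members and 205 to 459 CPM in Ly6c2 monocytes.

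Nr4a1, the nuclear receptor that non-classical monocytes need, was at 367, 395, 411, 283, 186 and 515 CPM in the members and at 50.1 to 128 CPM in Ly6c2 monocytes. Its log2 fold change was 1.87 ± 0.17 (adjusted p = 6.6e-07), and the values did not overlap. With it rose the zinc-finger factors Klf2 (1.19 ± 0.11) and Klf4 (1.56 ± 0.14), the octamer-binding factor Pou2f2 (1.91 ± 0.14) and the anti-apoptotic genes Bcl2 (1.81 ± 0.25) and Bcl2a1b (1.42 ± 0.20), so that 6 of 15 tested transcription and survival genes rose and 1, Cebpd (-0.43), fell.

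The chemokines Ccl2, Ccl7 and Ccl12 and parts of the interferon-response and glycolysis lists were lower in the members than in Ly6c2 monocytes. Ccl2, the ligand of Ccr2, was at 74.7, 18.5, 451, 354, 62.6 and 317 CPM in the members and at 921 to 2716 CPM in Ly6c2 monocytes (log2 fold change -3.26 ± 0.31). Ccl7 fell by 3.89 and the lipopolysaccharide co-receptor gene Cd14 fell by 1.398, while the chemokines Ccl3 (0.24) and Ccl4 (-0.35) did not pass. In all, 5 of 14 tested inflammatory genes fell and 3 rose, the 3 being Nfkbiz (1.84 ± 0.23), Ccrl2 (0.66) and Il1b (0.37 ± 0.12, adjusted p = 0.033, higher in 4 of 6 libraries). Of 16 interferon-response genes 9 fell and 0 rose, led by the antiviral tetherin gene Bst2 (-1.10) and the ubiquitin-like Isg15 (-1.04). The gate limits Ifit1, Ifit2, Ifit3 and Rsad2 in both classes. Of 17 hypoxia and glycolysis genes 13 fell and 0 rose, with a median of -0.48, and these included the glucose transporter Slc2a1 (-0.92), pyruvate kinase Pkm (-0.70) and lactate dehydrogenase Ldha (-0.50). Without the library as a block, 4 interferon-response genes and 7 hypoxia and glycolysis genes fell.

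Genes of the dissociation response, which heat and digestion induce, moved little between the monocyte classes: of 16 tested, 1 rose and 3 fell, with a median of -0.0055. The members were shallower than Ly6c2 monocytes in every library: median UMIs per cell by library were 3981 to 8289 in the members and 8421 to 11788 in the Ly6c2 monocytes. With every cell thinned to 1000 UMIs, so that all cells weigh the same, 869 genes could be tested, of which 112 were higher and 91 lower.

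**Figure D2:**
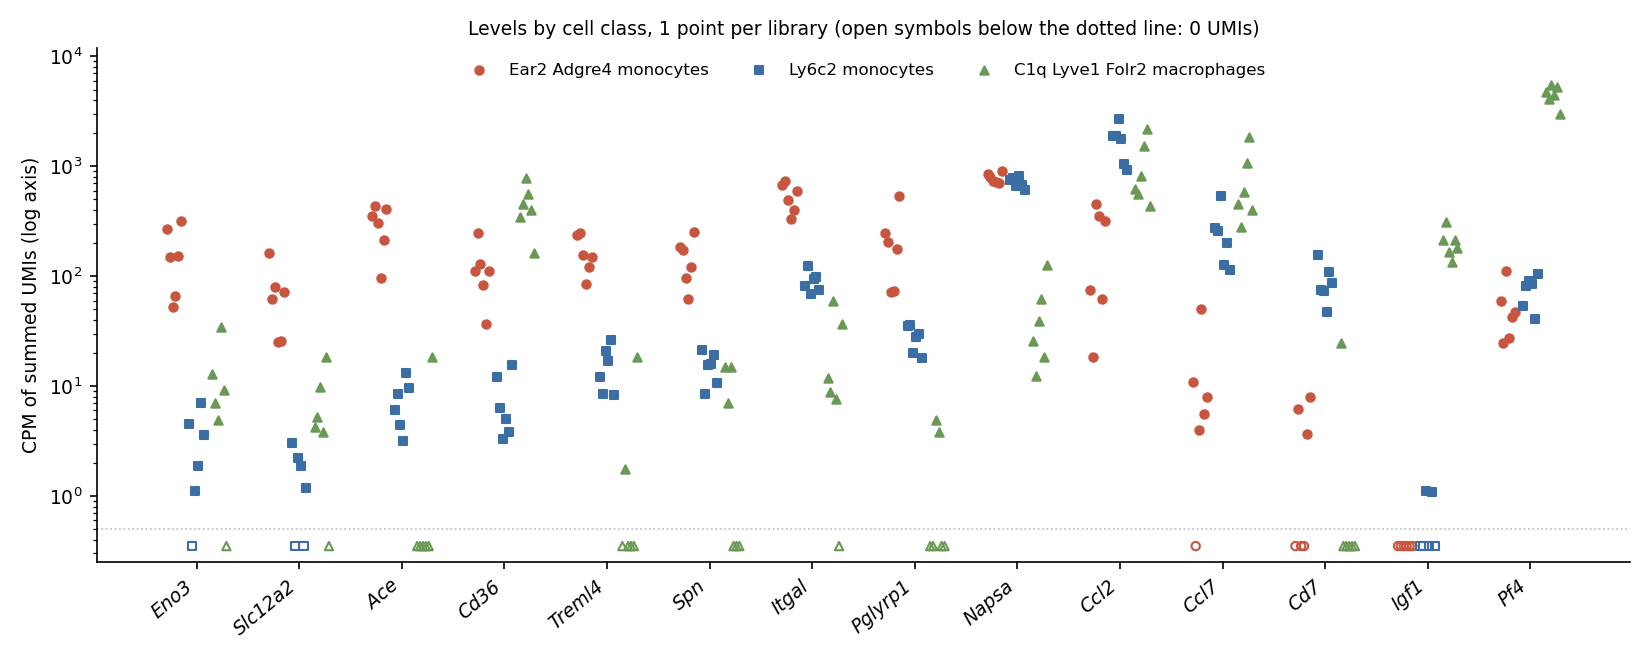
CPM of summed UMIs (log axis) of 14 genes in Ear2 Adgre4 monocytes, Ly6c2 monocytes and C1q Lyve1 Folr2 macrophages, with 1 point per library and open symbols where the library had 0 UMIs. Ace, Eno3 and Itgal are highest in the Ear2 Adgre4 monocytes in all 6 libraries, Napsa lies near 612 to 904 CPM in both monocyte classes, and Pf4 and Igf1 mark the macrophages.

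Products of major histocompatibility complex (MHC) class II genes present peptides to T cells, and Cd74 is their chaperone. Summed over all members, class II genes were higher than in Ly6c2 monocytes: H2-Eb1 was at 2214, 2088, 1828, 1777, 1805 and 1165 CPM against 85.8 to 477 CPM (log2 fold change 2.88 ± 0.26, adjusted p = 4.7e-07). The class II list of 10 genes also holds the costimulatory gene Cd86 and the dendritic cell genes Flt3 and Cd209a, and the last 2 are on the dendritic cell list as well. Of its 9 tested genes 5 rose and 0 fell, namely H2-Aa (2.31 ± 0.24), H2-Ab1 (2.39 ± 0.27), H2-Eb1, Cd74 (1.85 ± 0.25) and the transactivator Ciita (1.51 ± 0.35). These UMIs were concentrated in few cells. A count of H2-Aa, H2-Ab1 and H2-Eb1 of at least 10 per 10000 UMIs was reached by 61 members (22.4%), which held 99.1% of the class II UMIs of all members, whereas 171 members had 0. Among Ly6c2 monocytes 81 of 625 cells (12.96%) reached that level.

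Without those 61 cells, the same test of the remaining 211 members against all Ly6c2 monocytes found 0 of 8 genes of the list higher and 7 lower, Cd209a among them, with a median of -2.56 and H2-Eb1 at -4.43. That reversal follows from how the 211 cells were chosen, a limit set after the data were seen. Of 22 non-classical genes tested in the 211 cells 19 were higher and 0 lower, with Nr4a1 at 1.99 and Treml4 at 3.37. The class II cells were more frequent among members with Ear2 only (25 of 63) than among those with both gate genes (29 of 181). They had Ace at 144 CPM against 318 CPM in the other members, Itgal at 273 against 606 CPM and Ccr2 at 742 against 693 CPM. Cd209a, a lectin of monocyte-derived dendritic cells, was detected in 14 members, of which 12 were class II cells. The part of dendritic cells in the class II values was not tested.

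The promoters of H2-Aa and H2-Eb1 are shown because the 2 genes shared this pattern across cells and classes. The 300 bases run from 250 before to 50 after the annotated start (RefSeq, GRCm38.p6), 5' to 3' on the gene's strand, H2-Aa at chr17:34287774-34288073 on the minus strand and H2-Eb1 at chr17:34305617-34305916 on the plus strand. Capitals mark TGATTGG, the core of the Y box bound by NF-Y in class II promoters, searched as TGATTGG or CCAATCA so that both strands are covered.
H2-Aa: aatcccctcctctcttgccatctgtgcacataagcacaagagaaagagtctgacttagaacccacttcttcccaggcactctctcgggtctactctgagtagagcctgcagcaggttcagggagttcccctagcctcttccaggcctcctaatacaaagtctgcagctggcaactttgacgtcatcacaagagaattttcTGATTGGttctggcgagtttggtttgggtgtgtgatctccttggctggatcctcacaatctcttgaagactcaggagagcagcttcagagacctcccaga
H2-Eb1: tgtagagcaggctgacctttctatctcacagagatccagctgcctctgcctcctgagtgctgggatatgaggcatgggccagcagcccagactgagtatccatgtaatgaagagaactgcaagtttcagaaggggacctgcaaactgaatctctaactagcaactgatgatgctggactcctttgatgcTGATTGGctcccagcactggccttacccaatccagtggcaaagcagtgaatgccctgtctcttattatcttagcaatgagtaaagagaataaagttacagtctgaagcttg
The match starts at base 201 of the H2-Aa sequence and at base 190 of the H2-Eb1 sequence. Of the 10 genes of the list 6 had a promoter entry and 3 of them held the motif, the third being H2-DMb1, while 2568 of all 32851 promoter entries (7.82%) held it. A match describes these letters and is not a measured binding site.

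Within the gate the members varied widely. The 6 genes with the highest positive fold changes (Eno3, Slc12a2, Ace, Cd36, Treml4 and Spn) had 0 UMIs in 38 members, 1 in 31, 2 to 3 in 49, 4 to 10 in 97 and 11 or more in 57. Along these bins Ccr2 went from 1143 CPM to 987, 792, 434 and 261 CPM, where all Ly6c2 monocytes together had 962 CPM. Ly6c2 was at 197, 314, 285, 162 and 28.6 CPM, and Nr4a1 at 199, 58.7, 250, 363 and 706 CPM. Itgal went from 116 to 1205 CPM between the lowest and the highest bin. Cells with 0 of the 6 genes had a median of 10148 UMIs and those with 11 or more 4701, so low counts of the 6 genes did not go with shallow cells. These bins were set on the members themselves and the values are a description, with no test.

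The share of members with any of the 6 genes differed between libraries. With each member thinned to 1000 UMIs it was 72.9% in the WT sham (exact 95% interval 60.9 to 82.8), 66.7% in the KO sham (46.0 to 83.5), 60% in WT at 24 h (40.6 to 77.3), 30.4% in KO at 24 h (17.7 to 45.8), 43.2% in WT at 72 h (31.8 to 55.3) and 64.0% in KO at 72 h (42.5 to 82.0). Among Ly6c2 monocytes it was 2.68% to 8.25% at the same depth. The 6 genes were picked as highest in the members against these cells, so that low share is a description and no check. The KO 24 h interval lay below those of both shams, and the WT 72 h interval below that of the WT sham, without overlap. These intervals cover the counting of cells within 1 library per group only. The members were chosen at full depth before thinning. Their median UMIs were 8141.5 in KO at 24 h and 7101.5 in WT at 72 h, against 5110.5 and 5082 in the WT and KO shams. The part of depth in these shares was not tested.

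**Figure D3:**
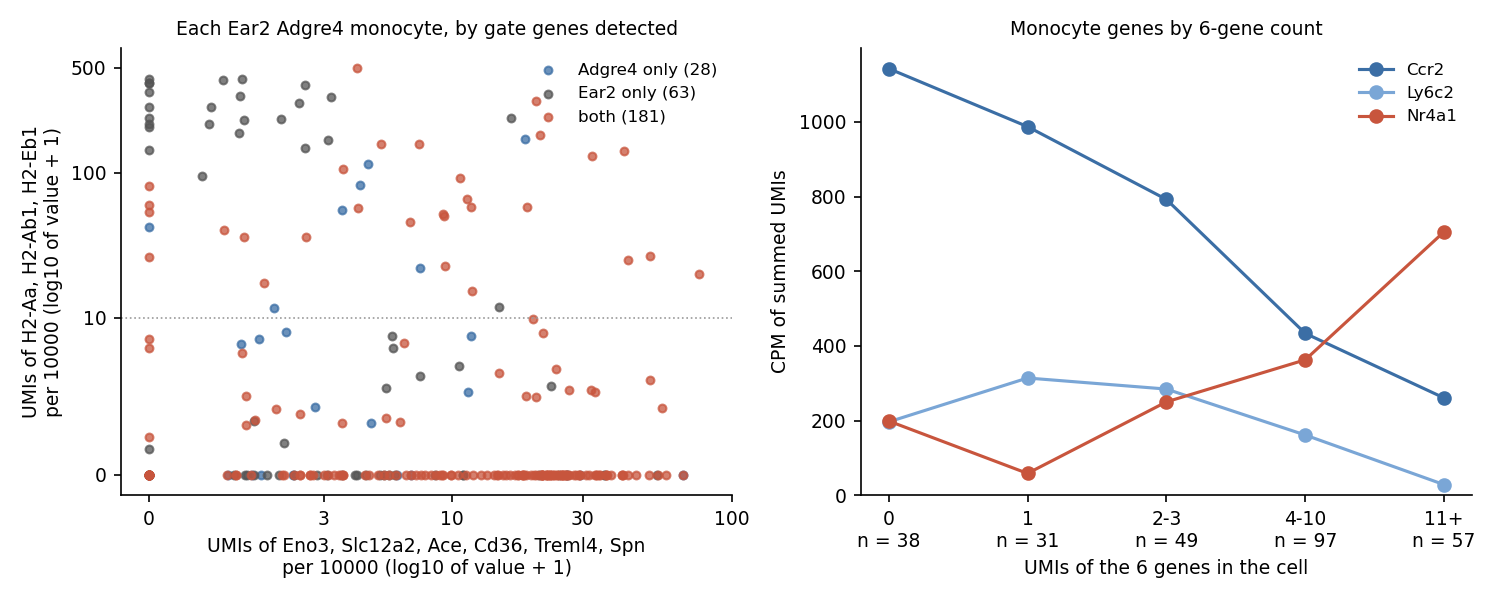
Left: each of the 272 members by UMIs of the 6 genes (x) and of H2-Aa, H2-Ab1 and H2-Eb1 (y) per 10000 UMIs, both as log10 of value + 1, coloured by the gate genes detected, with the dotted line at 10. Right: CPM of Ccr2, Ly6c2 and Nr4a1 in bins of the 6-gene UMI count. Most cells lie at 0 class II UMIs, and Ccr2 goes from 1143 to 261 CPM from the first bin to the last.

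Against 237 C1q Lyve1 Folr2 macrophages, the resident kind of the heart, the members had more of most non-classical genes and little of the resident macrophage genes. These cells met the same quality and lineage limits and had at least 5 UMIs of C1qa and C1qb, at least 3 of Lyve1, Folr2 and Timd4, and fewer than 3 of Ear2 and Adgre4. Of 3427 genes tested, 653 were higher in the members (19.1%) and 596 lower (17.4%). Ace had 0 CPM in the macrophages of 5 libraries and 18.3 CPM in the sixth, and its log2 fold change was 8.65 ± 0.42 (adjusted p = 5.1e-10). Treml4 (7.30 ± 0.45), Pglyrp1 (7.24 ± 0.48), Itgal (5.19 ± 0.35) and Napsa (4.56 ± 0.29) were also higher in 6 of 6 libraries. Of 22 non-classical genes 20 rose and 1 fell, the exception being Cd36 (-2.01 ± 0.28), at 36.8 to 247 CPM in the members and 164 to 783 CPM in the macrophages.

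Classical monocyte genes also separated the members from macrophages, with 8 of 13 higher and 2 lower. Ccr2 was 2.32 ± 0.36 higher and the acute-phase gene Hp 4.21 higher on the log2 scale, and F13a1 (-3.39) and Ccl9 (-1.50) were lower. Among scavenger receptors the direction was mostly the opposite: 10 of 17 fell and 4 rose. Stab1 (-4.52), the mannose receptor Mrc1 (-4.62) and the efferocytosis receptor Mertk (-3.83) fell, and Fcgr4 (2.06 ± 0.26) and Cd300lf (3.40) rose. Cd163, the haemoglobin scavenger receptor, had 1018 UMIs in the macrophages and 0 in the members, at least 313-fold lower against a floor of 3 UMIs over the group. The growth factor Igf1 had 480 and 0 UMIs, at least 148-fold lower. C1qc had 9739 UMIs in the macrophages and 11 in the members, and is tied to the limits on C1qa and C1qb that chose both classes. The chemokine Pf4 was at 3011 to 5518 CPM in the macrophages and 24.7 to 113 CPM in the members (-6.50 ± 0.21).

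Dissociation-response genes were higher in the members than in these macrophages, 10 of 13 with 0 lower. They stand beside the inflammatory gene Il1b (2.76 ± 0.47) as a measured difference whose part was not tested. Of the class II list 6 of 7 were higher, all but Cd86 (-0.63). In the 211 members without class II cells 0 of 7 were higher and 6 lower, which follows from how those cells were chosen. With at least 5 UMIs of Ear2 and Adgre4 required, 0 of 7 were higher against these macrophages. Against Ly6c2 monocytes 4 to 5 genes of the list were higher in each of 14 settings, that gate among them. H2-Aa was at 1856, 1799 and 2158 CPM in members with 3 to 4, 5 to 9 and 10 or more gate UMIs.

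The comparison of ligation at 24 h with sham asked which genes of these monocytes differed early after infarction. In both genotypes at least 6 of 11 measured inflammatory genes were higher, and some non-classical genes were lower. Thrombospondin-1 (Thbs1), a secreted matrix glycoprotein, was at 191 and 148 CPM in the WT and KO shams, 1381 and 937 CPM at 24 h, and 309 and 484 CPM at 72 h. Its ratio at 24 h over sham was 7.23 (95% interval 5.698 to 9.26) in WT, and the KO ratio was 6.32 (4.19 to 9.98). In WT at 24 h 46.1% of the Thbs1 UMIs lay in 1 cell, and without the member with the most UMIs of the gene in each library (the top member) the level there was 785 CPM and the ratios were 5.79 in WT and 7.71 in KO. A gene was counted as different at a ratio of at least 2 either way with an interval that leaves out 1, among genes with at least 30 UMIs over the pair. In WT 103 of 3196 genes were higher (3.22%) and 66 lower (2.07%), and in KO 160 of 2629 were higher (6.09%) and 100 lower (3.8%). Of 2520 genes measured in both genotypes 23 were higher in both, 7 lower in both and 0 opposite.

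Of 11 measured inflammatory genes 6 were higher and 0 lower in WT (median log2 ratio 1.005), and 8 were higher and 0 lower in KO (median 2.10), where the medians over all genes were -0.01 and 0.05. Without the cells of highest doublet score the WT list median was 0.38. Cd14 was at 112 and 92.6 CPM in the WT and KO shams and at 681 and 525 CPM at 24 h, ratios of 6.08 (4.42 to 8.48) and 5.66 (3.36 to 10.3). The cytokine oncostatin M (Osm) was 16.5 times the sham level in WT (6.57 to 53.3) and 17.1 times in KO (2.93 to 692), the latter from few sham UMIs. Ccl2 ratios were 6.04 (4.08 to 9.15) and 19.1 (6.42 to 93.8), with the WT ratio at 2.77 without the top member of each library, and those of Il1b 1.96 (1.68 to 2.29) and 3.16 (2.61 to 3.86). The urokinase receptor Plaur (3.40 in WT, 2.61 in KO), the fatty acid-binding protein Fabp5 (3.98 and 2.64), the protease Furin (3.85 and 2.70) and the transcription factor Fos (2.74 and 3.01) were higher in both. With at least 5 UMIs of Ear2 and Adgre4 required, Fos in WT went to a log2 ratio of -0.32.

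The other kept cells of the same libraries moved with several of these genes. Over those cells Thbs1 was at 360 and 344 CPM in the WT and KO shams and at 1159 and 925 CPM at 24 h, and Il1b at 1160 and 751 CPM and then 3044 and 3584 CPM. Cd14 went from 421 and 293 CPM to 1332 and 1427 CPM. In Ly6c2 monocytes Thbs1 went from 525 CPM in the WT sham and 263 CPM in the KO sham to 915 and 1105 CPM at 24 h. There Plaur went from 202.5 and 185 CPM to 529 and 415 CPM, and Fos from 894 and 923 CPM to 1713 and 1129 CPM. Fabp5 went from 142 to 176 CPM in WT and the other way in KO, from 242 to 155 CPM. Several of these shifts were thus not particular to the members. Whether RNA from other cells contributes to the values in the members was not tested. Dissociation-response genes moved as well, 7 of 15 higher in WT and 3 of 14 in KO.

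Part of the non-classical list was lower at 24 h. The depth of the members moved with it, with median UMIs of 5110.5 and 5082 in the WT and KO shams and 8288.5 and 8141.5 at 24 h, and a deeper cell meets the limit of 3 gate UMIs with a smaller share of its transcripts. Its part was not tested. In WT 0 of 24 measured were higher and 3 lower (median log2 ratio -0.24), and in KO 0 of 22 were higher and 12 lower (median -1.16). Eno3 went from 270 to 52.3 CPM in WT, a ratio of 0.194 (0.1003 to 0.344), and from 148 to 66.7 CPM in KO, a ratio of 0.450 (0.253 to 0.808), or 0.548 (0.277 to 1.11) without the top member of each library. Pglyrp1 was also lower in both (0.295 in WT, 0.361 in KO). Outside the list, myelin basic protein Mbp (0.247 and 0.408), the receptor Cd300ld (0.315 and 0.437), the transcription factor Mef2c (0.441 and 0.361) and the kinase Stk38 (0.486 and 0.373) were lower in both, as was Cd209a, all of whose UMIs in the KO sham and in WT at 24 h came from 1 cell. Ace differed between the genotypes in size: its ratio was 0.860 (0.646 to 1.14) in WT and 0.224 (0.149 to 0.332) in KO. Spn (0.359), Cx3cr1 (0.402), Pou2f2 (0.349) and Itgal (0.447) were lower than sham in KO, where WT ratios were 0.524, 0.692, 0.805 and 0.729. The difference between genotypes in these ratios was not tested. With the same cells thinned to 1000 UMIs each before summing, the KO list median was -0.52.

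Classical monocyte genes went the other way at 24 h, with 3 of 14 higher in WT (median 0.49) and 8 of 15 in KO (median 1.02) and 0 lower in either. The Ly6c2 ratio was 2.65 (1.58 to 4.50) in WT and 10.5 (4.00 to 39.3) in KO, from 4 UMIs to 113 in the latter. Some members themselves had at least 3 UMIs of Ly6c2, the limit of the comparison class. They were 4 of 70 in the WT sham, 0 of 27 in the KO sham, 6 of 30 in WT at 24 h and 12 of 46 in KO at 24 h. At 72 h they were 18 of 74 in WT and 3 of 25 in KO. The part of this mix of cells in the classical gene ratios was not tested. Fibronectin (Fn1, 1.21 and 2.81) and F13a1 (1.30 and 3.88) were more than 2-fold higher in KO and not in WT, untested as a difference. In KO the S100a8 ratio was 9.11 (4.71 to 20.2), beside the neutrophil sums given above. S100a8 is a gate gene, limited in the members and left out of the counts of differing genes, so its ratio is only a description.

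**Figure D4:**
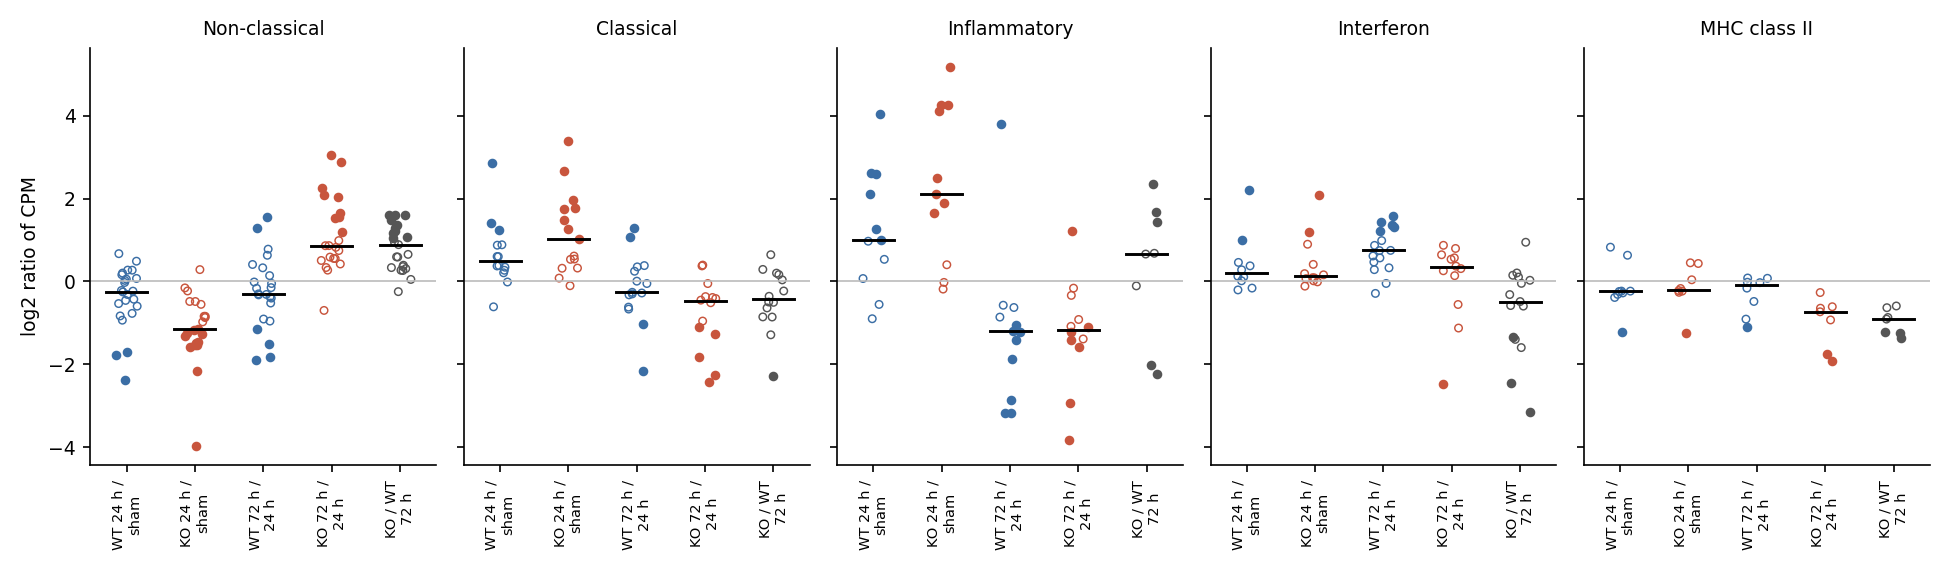
log2 ratio of CPM in the members for each measured gene of 5 lists, for 24 h over sham and 72 h over 24 h in each genotype and for KO over WT at 72 h. Filled points differ at least 2-fold with an interval that leaves out 1, and bars are list medians. The non-classical median is -1.16 in KO at 24 h over sham and 0.86 at 72 h over 24 h, and the inflammatory medians are 1.005 and 2.10 at 24 h over sham and -1.20 and -1.17 at 72 h over 24 h.

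The ratios of 72 h over 24 h after ligation share the 24 h libraries with those above, so a high or low 24 h library moves both in opposite directions. In WT 97 of 3448 genes were higher at 72 h (2.81%) and 183 lower (5.31%), and in KO 107 of 2502 were higher (4.28%) and 151 lower (6.04%). Of 2458 genes measured in both genotypes 11 were higher in both, 37 lower in both and 6 opposite. Eno3 was higher at 72 h, 2.92-fold in WT (1.62 to 5.71) and 4.75-fold in KO (2.87 to 7.95). Pglyrp1 was at 72.5 and 73.7 CPM in WT and KO at 24 h and at 178 and 539 CPM at 72 h, ratios of 2.46 and 7.32. Mbp was higher in both (3.59 and 2.25), where the KO interval without the top member of each library was 0.927 to 4.398. Cd300ld (2.31 and 2.53) and the G-protein regulator Rgs2 (2.23 and 2.33) were higher in both genotypes.

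As a list, non-classical genes differed by genotype in count at this step: in WT 2 of 23 were higher and 4 lower (median -0.30), and in KO 9 of 22 were higher and 0 lower (median 0.86). Ace went from 96.7 to 412 CPM in KO, a ratio of 4.26 (2.79 to 6.57), and was at 0.698 (0.518 to 0.944) in WT. The KO members at 72 h had a median of 3981 UMIs and those at 24 h 8142. A limit of 3 gate UMIs asks for a larger share of the transcripts in a shallower cell, and the part of this in the KO values was not tested.

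Of 12 inflammatory genes 8 were lower and 1 higher in WT at 72 h over 24 h (median -1.20, or -0.28 with cells thinned to 1000 UMIs before summing), and 6 lower and 1 higher in KO (median -1.17). Osm was 0.112 and 0.374 of the 24 h level in WT and KO, Cd14 0.276 and 0.332, and Il1b 0.486 (0.419 to 0.565) and 0.465 (0.385 to 0.557), the WT value being 0.531 without the top member of each library. Furin (0.348 and 0.238), the cell-cycle inhibitor Cdkn1a (0.377 and 0.265) and the heat-shock gene Hspa1a (0.0876 and 0.378) were lower in both. The list's higher gene in WT was the chemokine Cxcl10 (13.9, 3.70 to 118), and in KO Nfkbiz (2.33, or 1.76 without the top member of each library). Interferon-response genes had 5 of 16 higher and 0 lower in WT (median 0.75) and 0 of 12 higher and 1 lower in KO (median 0.34), the 1 being Isg15. Of 13 hypoxia and glycolysis genes 5 were lower and 0 higher in KO (median -0.97), against 1 of 11 lower in WT.

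**Figure D5:**
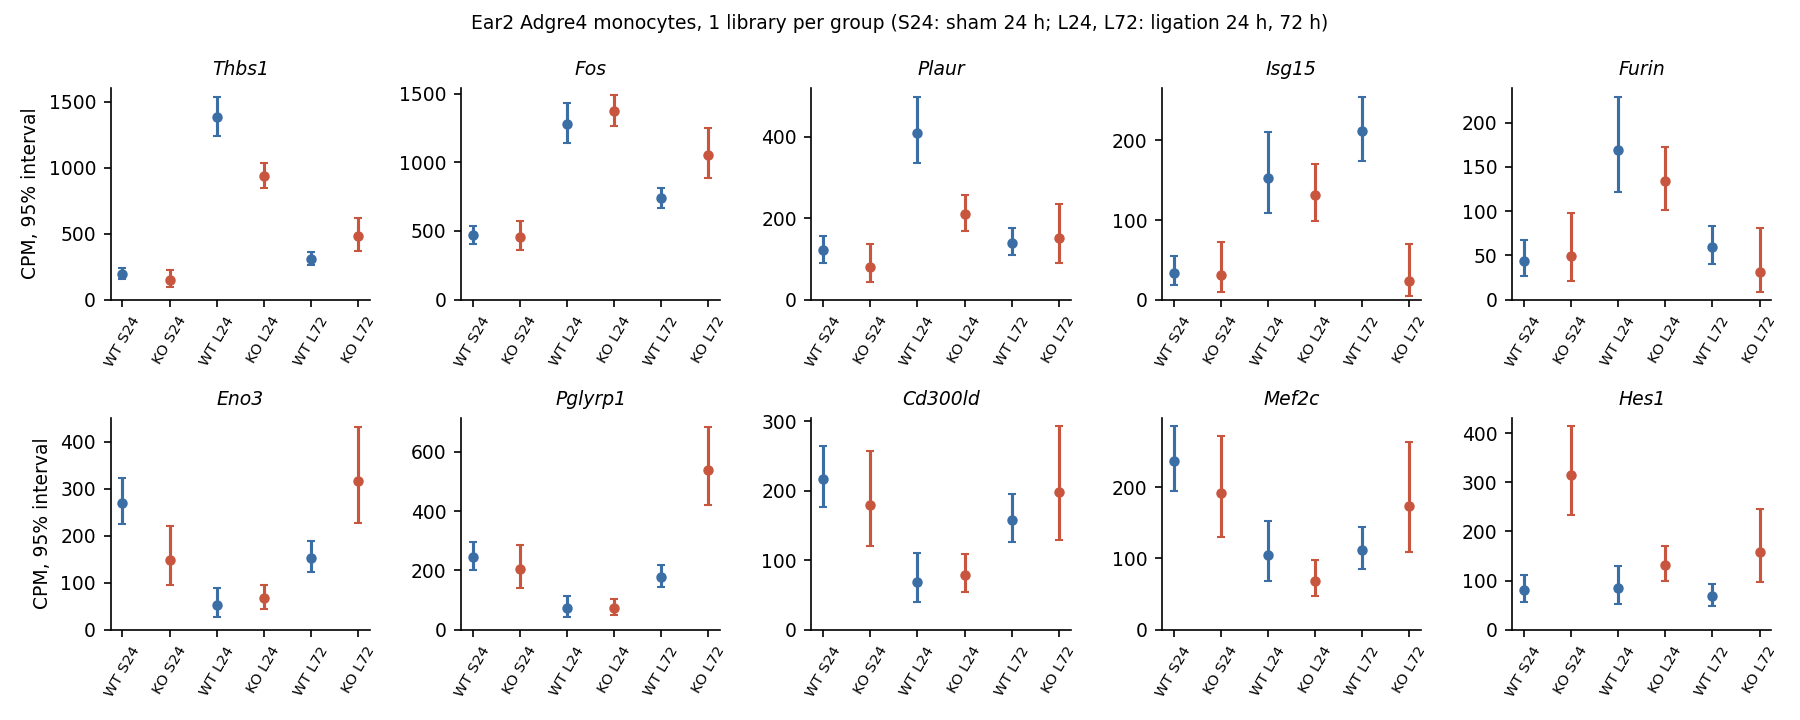
CPM of 10 genes in the members of each library with exact 95% Poisson intervals (blue WT, red KO). Thbs1, Fos, Plaur and Furin are highest at 24 h after ligation in both genotypes, Eno3, Pglyrp1 and Cd300ld are lowest at 24 h, and Hes1 lies higher in the KO library of each condition, with overlapping intervals at 24 h.

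The KO and WT libraries of the same condition were compared to see what differed in these monocytes without Trpm4, with the same libraries as above. In shams 38 of 2841 genes were higher in KO (1.34%) and 90 lower (3.17%), at 24 h 71 of 2997 were higher (2.37%) and 76 lower (2.54%), and at 72 h 68 of 2910 were higher (2.34%) and 93 lower (3.2%). The Notch target Hes1 passed the 2-fold rule in shams and at 72 h and not at 24 h. It was at 315 against 81.3 CPM in shams (ratio 3.88, 2.49 to 6.09), 131 against 84.6 CPM at 24 h (1.55, 0.926 to 2.69) and 159 against 68.1 CPM at 72 h (2.33, 1.28 to 4.12). Of the 20 Hes1 UMIs in KO at 72 h 35% lay in 1 cell, and without the top member of each library the 72 h ratio was 1.94 (0.929 to 3.83) and the sham ratio 3.23. ATP-citrate lyase (Acly) had ratios of 2.30, 1.47 and 2.23 in shams, at 24 h and at 72 h, the last at 1.74 (0.744 to 3.74) without the top member of each library, and the phosphatase Dusp5 1.15, 2.51 and 2.50. Hes1, Acly and Dusp5 passed the 2-fold rule in 2 of the 3 conditions each, as did the lectin Mgl2, whose UMIs came mostly from few cells: 97.4% of them lay in 1 cell in the WT library at 24 h.

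At 72 h the non-classical list had 10 of 23 genes higher in KO and 0 lower (median log2 ratio 0.89). Nr4a1 was at 515 CPM in KO against 186 CPM in WT, a ratio of 2.77 (1.998 to 3.82), and Pglyrp1 (3.02), Cd36 (3.02), Fabp4 (3.05, or 1.30 without the top member of each library), Itga4 (2.26) and Spn (2.09) were also higher. At 24 h the same list had 0 of 22 higher and 3 lower (median -0.47), with Ace at 0.316 (0.211 to 0.466). In shams 3 of 24 were higher and 1 lower (median 0.08). The direction between genotypes thus changed with the condition, and at 72 h the depth of the members moved with it, with median UMIs of 3981 in KO and 7102 in WT, whose part was not tested. With cells thinned to 1000 UMIs before summing, the 72 h median was 0.45.

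Interferon-response genes at 72 h had 0 of 15 higher and 3 lower in KO (median -0.48, or 0.12 with cells thinned to 1000 UMIs before summing). Isg15 was at 212 CPM in WT and 23.8 CPM in KO, a ratio of 0.112 (0.0228 to 0.337), and Irf7, the transcription factor of the interferon response, at 261 and 47.6 CPM (0.182, 0.0657 to 0.406). Bst2 was at 0.398 (0.227 to 0.655). The immunoproteasome subunit Psmb9 was at 265 and 39.6 CPM (0.150, 0.0478 to 0.357). For KO against WT at 72 h, Ly6c2 monocytes had Isg15 at 246 against 464 CPM and Psmb9 at 156 against 216 CPM. The other kept cells had Isg15 at 261 against 406 CPM and Psmb9 at 136 against 148 CPM. The summed interferon-response list stood at 8848 against 9478 CPM for the members and 10197 against 14567 CPM for Ly6c2 monocytes. The direction of these differences was thus not particular to the members. Of the class II list 3 of 7 were lower in KO at 72 h and 0 higher (median -0.91, or -2.81 with at least 5 gate UMIs required), and 0 of 9 differed in shams. Members with at least 10 class II UMIs per 10000 were 5 of 25 in KO (20%) and 16 of 74 in WT (21.6%) at 72 h. Such cells held nearly all class II UMIs, so the KO level rested on few cells. Inflammatory genes in shams had 0 of 7 higher and 4 lower in KO (median -1.06, or -0.07 with at least 5 gate UMIs required), among them Cxcl2 (0.328, 0.198 to 0.517) and Ccl2 (0.248, 0.0488 to 0.789), the latter at 0.304 (0.0344 to 1.26) without the top member of each library. At 72 h the summed Ccl2 (5.07, 3.13 to 8.25), Cxcl2 (2.69) and Nfkbiz (3.17) were higher in KO. The Ccl2 UMIs of that library came from 8% of its members, against 14.9% in WT, and without the top member of each library the ratios were 0.428 for Ccl2, 0.788 for Cxcl2 and 2.34 for Nfkbiz. At 72 h the list median of 0.67 went to -0.37 with at least 5 gate UMIs required.

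Several large genotype ratios rested on few cells. The chemokine Ccl22 had 170 UMIs in the KO library at 24 h and 1 in the WT library, and 74.7% of the 170 lay in 1 cell. Retnla had 62 and 0 UMIs at 24 h, with 75.8% in 1 cell. For Ccl17, with 456 UMIs in KO and 45 in WT at 24 h (ratio 5.79, 4.26 to 8.05), 41.5% and 77.8% lay in 1 cell. Saa3 was higher in the KO sham (9.14, 5.47 to 15.9), with 44.6% of its 65 UMIs in 1 cell. Counting intervals do not cover such differences between cells.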

How the data were processed

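Single-cell RNA sequencing of sorted live non-cardiomyocytes was measured in 6 libraries, each pooled from 4 mice. The deposited matrices hold counts of UMIs per gene and cell; per the submitters' processing notes they were made with Cell Ranger 6.0.0 on genome build mm10, and filters after that step are not given in the sources used here. The files hold 32285 genes, and no barcode had under 500 UMIs. The members, the gene lists and the comparisons were chosen with earlier results of these data known.

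From the counts, cells were kept at 1000 UMIs, 200 genes and 20% mitochondrial UMIs, and the gate given in the report was applied to raw UMIs. Counts were summed per library and class. Members were tested against each comparison class, in libraries with at least 10 cells of each, by edgeR 4.0.16 (R 4.3.3; quasi-likelihood test, TMM, library as a block, Benjamini-Hochberg adjustment over all genes tested, threshold 0.05), with gate genes left out of the calls. The libraries pair the classes, since both come from the same pooled mice. P-values measure the spread between these 6 libraries, which differ in genotype and condition. The SE after ± is the absolute log2 fold change divided by the square root of the test's F statistic, an approximate value and not a separate estimate. The script was tested on simulated data. With 1 library per group, conditions were compared as ratios of CPM of summed UMIs with exact conditional Poisson 95% intervals and no test. Shares have exact Clopper-Pearson 95% intervals. Intervals and the floor of 3 UMIs cover counting error only.

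Named genes follow a rule: against each class, the 12 highest and 12 lowest fold changes past the threshold with at least 50 UMIs and the same direction in every library; across conditions, the 8 highest and 8 lowest ratios among genes different the same way in both genotypes, and for KO against WT the genes different the same way in 2 conditions with that direction in the third, plus the 4 highest and 4 lowest per condition. Such a gene needed 100 CPM in its higher library and a level over the library's other cells of at most 2 times that. Genes of the fixed lists, the gate genes and Trpm4 could be named as well. Dctn2 was named after its values were seen.

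No doublets were removed. Scrublet (scanpy 1.11.5) by its own threshold called 65 cells, so as an alternative the highest scores, 0.8% per 1000 deposited cells, were left out instead; 9 members were among them. Other alternatives were DESeq2 1.42.0, no filter on low counts, no library block, leaving out each library, thinned cells and other gates.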

Additional observations from a re-analysis of the deposited data

Results flagged for a closer look

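In the members, 6 genes differed at least 2-fold in opposite directions in the genotypes between 24 h and 72 h after ligation. Each value rests on 1 library per group, and the difference between the genotypes was not tested. Ctla2a, a gene related to the propeptides of cysteine proteases, had a log2 ratio of -3.28 in WT and 3.26 in KO, with 76% of its UMIs in the KO 72 h library in 1 cell and a linear KO ratio of 3.58 (0.956 to 13.4) without the top member of each library. Fabp4, a fatty acid-binding protein of capillary endothelium that is also on the non-classical list, had -1.90 in WT and 3.06 in KO, beside 5249 and 1944 CPM over the other kept cells in the WT and KO libraries at 24 h and 696 and 877 CPM at 72 h. G0s2, a regulator of lipolysis, had 2.61 in WT and -3.39 in KO. Psmb9, an immunoproteasome subunit, had 1.396 and -1.80. Dctn2, a subunit of dynactin, had 1.04 and -1.54. Zc3h13, a component of the RNA methylation machinery, had -1.41 and 1.39.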

How the results depend on the processing

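Shares of members depended on the denominator and on depth. Among cells of the lineage limits the ratio of shares was 0.895 for KO at 24 h over sham, 0.717 for WT at 72 h over 24 h and 0.325 for KO at 72 h over 24 h. Thinned to 1000 and 2000 UMIs, KO at 72 h over 24 h was 1.70 and 2.35, and KO over WT at 72 h was 0.867 and 1.15.

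Against Ly6c2 monocytes, leaving out each library in turn gave 526 to 600 genes higher and 436 to 536 lower, and against macrophages 492 to 738 higher and 431 to 679 lower. Without the replicate block for the library the pairing of classes is lost, with 504 higher and 369 lower against Ly6c2 monocytes and 598 higher and 597 lower against macrophages. With no filter on low counts 974 were lower against Ly6c2 monocytes, and 1098 higher and 980 lower against macrophages. Thinned to 1000 UMIs the counts were 112 and 91, and 78 and 91, with fewer genes tested. Of the genes named by rule in these tests, 0 lost their call under any alternative that tested them, and 1 changed direction: H2-Eb1 against Ly6c2 monocytes was at -4.43 without class II cells, which that limit removes by construction.

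Counts of genes at least 2-fold different moved with the UMI minimum and with thinning. With at least 15 UMIs they were 317 (WT at 24 h over sham), 393 (KO at 24 h over sham), 429 (WT at 72 h over 24 h), 220 (KO over WT, sham) and 277 (KO over WT, 24 h). With at least 60 UMIs they were 62, 120, 115, 39 and 49 in that order, 142 for KO at 72 h over 24 h and 80 for KO over WT at 72 h. Thinned to 1000 UMIs they were 34, 33, 32, 16 and 25, then 28 and 24. With at least 5 UMIs of Ear2 and Adgre4, WT at 72 h over 24 h had 153, and with members limited to fewer than 10 class II UMIs per 10000 KO at 72 h over 24 h had 168. Required at 5 gate UMIs, 5 log2 values changed sign: Fos (WT at 24 h over sham, -0.32), the class II median (KO at 24 h over sham, 1.31), Irf8 (KO at 24 h over sham, 0.084), Fabp5 (KO at 72 h over 24 h, 0.025) and the inflammatory median (KO over WT at 72 h, -0.37). Without the member with the most UMIs of the gene in each library, 3 of the 23 listed and rule-named genes that passed in KO over WT shams changed direction. Ccl4 was among them, at a log2 ratio of 2.12. For KO over WT at 72 h 2 of 36 changed direction, Ccl2 and Cxcl2. Of the ratios of listed and rule-named genes that passed, 39 of 47 (WT) and 59 of 64 (KO) still passed at 24 h over sham, 45 of 57 and 61 of 68 at 72 h over 24 h, and 15 of 23, 21 of 23 and 26 of 36 for KO over WT in shams, at 24 h and at 72 h. The cause of these changes was not tested. Libraries of 25 to 74 members limit what could be seen, and genes with under 30 UMIs over a pair were not compared. List medians under thinning or another gate cover only the genes still at that minimum, so they need not be of the same genes. The limit on class II UMIs and the removal of single members were chosen after seeing the data.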
